A study of Homo sapiens with 6 samples.

Results

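Complement is a cascade of blood and tissue proteins that marks microbes and damaged cells for removal. In the classical pathway the proteases C1r and C1s, held on C1q, start the cascade, in the alternative pathway factor B and factor D build the enzyme that cleaves C3, and both routes meet at C3. Keratinocytes make several of these proteins themselves and protect their own surface with the membrane regulators CD46, CD55 and CD59. The genes described here are 9 of the 20014 in the deposited table. Of these, 6 encode soluble proteins (C3, CFB, CFD, C1R, C1S and SERPING1) and 3 encode membrane regulators (CD46, CD55 and CD59). They were chosen by function, as complement factors made by epithelium and regulators on its surface, with the measured knockout against control values of this table in view. Their differences between the groups are therefore given as a description, with no p-value, and support nothing further.

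RNA came from HaCaT cells, a spontaneously immortalized human keratinocyte line, with 3 libraries from STUB1 knockout cells and 3 from control cells of genotype WT. STUB1 (CHIP) is an E3 ubiquitin ligase that works with chaperones, and the series title names its relation to EDAR and NF-kB in epithelium. Both groups received a lentiviral lentiCRISPR v2 vector, carrying sgSTUB1 or sgControl, and no special treatment. Colonies grown from sorted cells were tested for STUB1 protein by immunoblot. Nothing in the labels ties the 3 libraries of a group to separate clones or cultures, so each test is against the variation among the sequenced libraries alone, and that variation may be technical.

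STUB1 mRNA measured 21.6, 24.7 and 23.2 FPKM (fragments per kilobase of transcript, scaled to library size) in knockouts 1 to 3 and 37.8, 41.9 and 52.7 FPKM in controls 1 to 3, without overlap. The number of genes at 1 FPKM or more ran from 11200 to 11292 per library. Mitochondrially encoded genes took 26.2%, 30.8% and 29.6% of the summed FPKM in knockouts 1 to 3 and 26.8%, 24.7% and 20.9% in controls 1 to 3, lowest in control 3. The part of that share in the results was not tested. Control 3 stood apart, with a Pearson correlation across genes of 0.988 and 0.986 to controls 1 and 2, against 0.998 between those 2 and 0.996 to 0.999 among the knockouts. Of 10 keratinocyte markers, 9 passed the filter of a mean of at least 1 FPKM, while KRT14, a basal keratin, stayed at 0.162 to 0.328 FPKM. All 8 fibroblast markers and all 6 hepatocyte markers were under 1 FPKM in every library. So were 8 of 9 leukocyte markers, the exception being the lysosomal gene CD68 at 20.9 to 25.4 FPKM. PTPRC, the pan-leukocyte marker, was at most 0.011 FPKM, and the fibroblast gene DCN was listed at 0 in every library. Of 5 adipocyte markers, ADIPOQ, LEP and CIDEC were listed at 0, and FABP4 measured 0.883 to 1.018 FPKM in the knockouts and 0.480 to 0.616 in the controls. Those cell types are the usual other sources of complement mRNA in skin and liver.

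The windows around the transcription starts are shown first, because CFB and C1R had higher mRNA and CD55 lower mRNA in the knockout. RefSeq windows (GRCh38.p14) of 300 bases, 250 before and 50 after the start, were given for 6 of the 9 genes. C3, C1S and SERPING1 were not among them. The CFB window is chr6:31945845-31946144 on the plus strand, the C1R windows, of 2 annotated starts, are chr12:7091844-7092143 (window 1) and chr12:7092396-7092695 (window 2) on the minus strand, and the CD55 window is chr1:207321428-207321727 on the plus strand. Each is printed along its gene's strand, with matches to the motifs searched in capitals.

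CFB: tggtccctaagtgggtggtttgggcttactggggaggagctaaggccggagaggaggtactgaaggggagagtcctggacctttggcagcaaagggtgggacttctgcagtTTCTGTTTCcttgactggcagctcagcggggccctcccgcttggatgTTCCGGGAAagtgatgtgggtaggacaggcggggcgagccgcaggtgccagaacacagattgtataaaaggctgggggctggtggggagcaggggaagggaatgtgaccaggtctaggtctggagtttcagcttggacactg

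C1R window 1: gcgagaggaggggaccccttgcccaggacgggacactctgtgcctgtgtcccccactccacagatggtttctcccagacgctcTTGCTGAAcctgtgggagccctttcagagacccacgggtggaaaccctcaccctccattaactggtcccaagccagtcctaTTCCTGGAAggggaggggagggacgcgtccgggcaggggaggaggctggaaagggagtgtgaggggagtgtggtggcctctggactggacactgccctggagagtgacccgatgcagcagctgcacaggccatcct

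C1R window 2: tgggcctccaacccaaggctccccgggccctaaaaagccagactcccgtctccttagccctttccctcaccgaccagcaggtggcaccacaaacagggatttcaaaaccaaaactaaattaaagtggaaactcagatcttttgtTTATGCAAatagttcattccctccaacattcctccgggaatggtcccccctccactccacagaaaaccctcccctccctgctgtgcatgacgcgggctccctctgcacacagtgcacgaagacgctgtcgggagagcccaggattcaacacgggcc

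CD55: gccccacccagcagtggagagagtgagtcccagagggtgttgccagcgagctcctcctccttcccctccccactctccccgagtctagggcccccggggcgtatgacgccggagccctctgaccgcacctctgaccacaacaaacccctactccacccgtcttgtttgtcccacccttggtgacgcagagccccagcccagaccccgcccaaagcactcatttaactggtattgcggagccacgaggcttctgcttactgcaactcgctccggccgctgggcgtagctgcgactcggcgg

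Motifs were searched on both strands. They were a GAS-like motif (TTCNNNGAA, the form STAT dimers bind), an ISRE-like motif (GAAANNGAA, the interferon response form), a C/EBP-like motif (TTGCNNAA) and the NF-kB consensus. The CFB window held TTCCGGGAA, a GAS-like match beginning at -92 from the start, and TTCTGTTTC, an ISRE-like match on the opposite strand beginning at -139. C1R window 1 held TTCCTGGAA, GAS-like, at -86 and TTGCTGAA, C/EBP-like, at -167. C1R window 2 held a C/EBP-like match, TTATGCAA, at -106 and no GAS-like match. Of the CD59 windows, those at the upstream starts held the GAS-like TTCTCAGAA and another held C/EBP-like letters, and those of CD46, CD55 and CFD held none of the motifs. GAS-like letters occurred in 7.66% of all 34943 windows of this length, ISRE-like letters in 8.10%, C/EBP-like letters in 10.5% and the NF-kB consensus in 5.90%. Each share is for 1 motif in 1 window, while C1R, CD46 and CD59 had more than 1 window each. A match says only that the letters are present. The windows printed were picked with this contrast known, so nothing is read from which of them hold matches.

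C3, the protein on which all activation routes converge, had the highest mRNA of the soluble components. It measured 50.9, 50.8 and 47.6 FPKM in knockouts 1 to 3 and 33.8, 37.1 and 24.98 FPKM in controls 1 to 3. All knockout libraries lay above all controls, and control 3 was the lowest. The means were 49.8 ± 1.88 FPKM (SD, n = 3) against 32.0 ± 6.27 FPKM (SD, n = 3), a ratio of 1.56. On the log2(FPKM + 1) scale the difference was 0.64 (SE 0.128). It was 0.48 without control 3 and 0.47 after a correction of each library for GC content and transcript length. In bulk RNA, a change in the number of cells expressing a gene and a change in RNA per cell cannot be told apart, here and below.

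CFB, encoding factor B, whose cleaved form is the protease of the alternative pathway convertase, had the largest difference of the 7 tested members. Its values were 15.0, 14.8 and 14.9 FPKM in knockouts 1 to 3 and 5.61, 5.94 and 6.73 FPKM in controls 1 to 3. The knockout libraries were nearly equal, and every one was more than double any control, with means of 14.9 ± 0.079 and 6.09 ± 0.576 FPKM (SD, n = 3 each), a ratio of 2.45. The log2 difference was 1.17 (SE 0.079), above 99.9% of all tested genes, and it lay between 1.10 and 1.28 under 15 alternative settings. CFB lies at 31945650 to 31952084 on chromosome 6 (GENCODE 29, GRCh38), directly after its paralogue C2, which acts in the classical convertase. Their annotated exons share 23 bases, and C2 itself measured 0.213 to 0.276 FPKM. CFB also shares 2249 exonic bases on the same strand with AL645922.1, and reads of that stretch cannot be assigned between the 2 annotations.

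CFD, encoding factor D, the protease that cleaves factor B once it is bound to C3b, was barely detected. Its values were 0.470, 0.611 and 0.640 FPKM in the knockouts and 0.506, 0.253 and 0.410 FPKM in the controls. The groups overlapped, and with a mean of 0.482 FPKM the gene was below the filter and not tested. SERPING1, encoding C1 inhibitor, the serpin that inactivates C1r and C1s, was listed at 0 in all 6 libraries. The table therefore holds mRNA of both C1 proteases without detected mRNA of their soluble inhibitor.

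C1R and C1S encode the 2 proteases of the C1 complex, C1r cutting itself and then C1s. C1R measured 18.2, 18.7 and 17.6 FPKM in the knockouts and 10.3, 12.1 and 11.0 FPKM in the controls. C1S measured 10.6, 10.4 and 10.6 FPKM in the knockouts and 6.45, 6.67 and 6.45 FPKM in the controls. For both genes the groups were separate and the libraries of a group close together. C1R was 1.63 times the control mean (log2 difference 0.66, SE 0.0786), and C1S was 1.61 times it (0.62, SE 0.0666). The ratio of C1R to C1S within a library was 1.72 ± 0.067 in the knockout and 1.71 ± 0.113 in the control (SD, n = 3 each), so the 2 partners differed between the groups by a like factor. Both lie on chromosome 12, C1S at 6988259 to 7071032 on the plus strand and C1R at 7080199 to 7092607 on the minus strand. C1R shares 672 exonic bases with C1RL on the same strand, and C1S shares 229 with EMG1, whose log2 difference was -0.09 (limma, Benjamini-Hochberg adjusted p = 0.412).

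**Figure D1:**
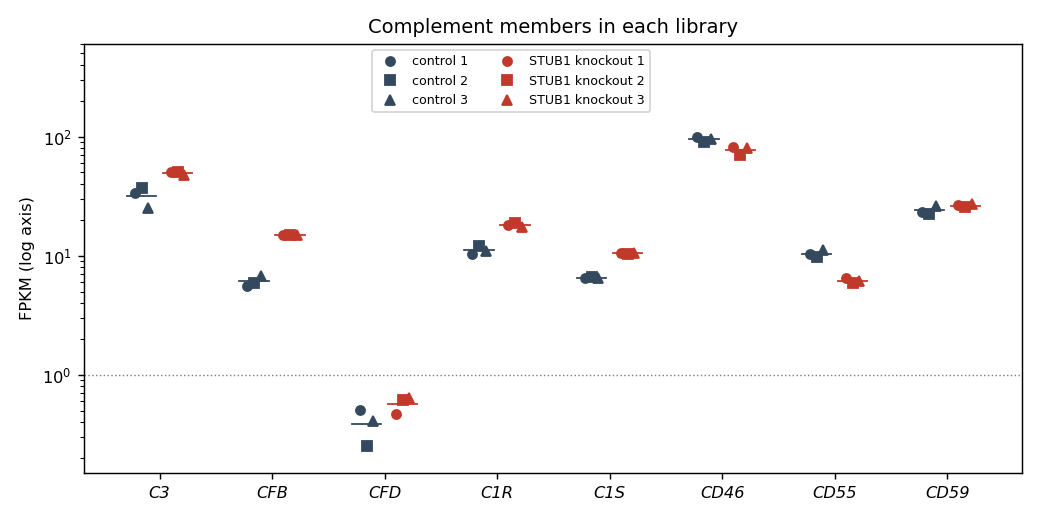
FPKM (log axis) of the 8 detected members in each library; points are libraries, short lines are group means and the dotted line is the filter of 1 FPKM. Knockout libraries lay above all controls for C3, CFB, C1R and C1S and below them for CD46 and CD55, while CFD and CD59 overlapped; SERPING1, listed at 0, is not drawn.

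The 3 membrane regulators differed from one another. CD46, also called membrane cofactor protein, helps factor I to degrade deposited C3b and C4b, and it had the highest mRNA of all 9 members. Its values were 82.0, 69.8 and 80.4 FPKM in the knockouts and 98.7, 90.5 and 94.9 FPKM in the controls. No knockout library reached the lowest control, and the knockout mean was 81.7% of the control mean (77.4 ± 6.63 against 94.7 ± 4.11 FPKM, SD, n = 3 each). The log2 difference was -0.29 (SE 0.0835). It was -0.16 after the correction for GC content and length, no longer past the threshold once the replicate block was added. The call was also lost with no filter on low values, at -0.29, and without knockout 1, knockout 2, knockout 3 or control 1, at -0.33, -0.22, -0.32 and -0.26.

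CD55, or decay-accelerating factor, is held by a GPI anchor and takes C3 convertases apart. It measured 6.53, 5.92 and 6.10 FPKM in the knockouts and 10.3, 9.75 and 11.2 FPKM in the controls. The highest knockout library stood well under the lowest control, and the mean fell to 59.5% of control (6.18 ± 0.310 against 10.4 ± 0.726 FPKM, SD, n = 3 each). The log2 difference of -0.67 (SE 0.0781) lay above only 1.18% of all tested genes, and ranged from -0.75 to -0.56 over 15 alternative settings. CD55 and CD46 are neighbours on chromosome 1, CD55 at 207321376 to 207386804 and CD46 at 207752057 to 207795513.

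CD59, a GPI-anchored protein that stops C9 from completing the membrane attack complex, did not follow the other regulators. Its values were 26.6, 25.5 and 26.9 FPKM in the knockouts and 23.3, 22.5 and 26.1 FPKM in the controls. Control 3 fell within the knockout range, and controls 1 and 2 below it. The means were 26.3 ± 0.755 and 24.0 ± 1.87 FPKM (SD, n = 3 each), with a log2 difference of 0.13 (SE 0.0767) that did not pass the threshold. Without control 3 it was 0.19 and passed, as it did with array weights at 0.20. CD59 shares 629 exonic bases on the same strand with AL049629.2, and reads of that stretch cannot be assigned between the 2 annotations.

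Of the 9 members, 7 passed the filter, and 6 of those 7 passed the threshold of limma with Benjamini-Hochberg adjustment at 0.05. Of all 11262 tested genes 22.9% did so. Members C3, CFB, C1R and C1S were past it on the higher side, where 9.58% of all tested genes stood, and CD46 and CD55 on the lower side, where 13.3% stood. With FPKM rescaled to TPM, 667 genes were higher and 1622 lower against 1079 and 1500, with the same number of members on each side. The groups did not overlap for 6 of the 7 members and for 45.6% of all tested genes. The median log2 difference of the 7 was 0.62, against -0.01 over all tested genes. The members were chosen with this contrast known, so nothing is read from these counts. C3 lost its call without knockout 2 (log2 difference 0.63), and the 4 higher members became 5 without control 3, which added CD59.

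Levels changed relative to one another as well. The ratio of C3 to CFB mRNA was 3.40, 3.42 and 3.19 in the knockouts and 6.03, 6.25 and 3.71 in the controls. Knockout ratios were below all control ratios, but control 3, with the lowest C3 and the highest CFB of the controls, came close to them. CD59 to CD55 was 4.07, 4.30 and 4.42 in the knockouts and 2.27, 2.31 and 2.33 in the controls, and here the control libraries were nearly equal. Of the summed FPKM of the 3 membrane regulators, CD55 made up 5.37% to 5.85% in knockout libraries and 7.76% to 8.46% in control libraries. Summed over the 6 soluble members, the knockout libraries had 91.3 to 95.3 FPKM and the controls 49.6 to 62.1. The 3 membrane regulators summed to 101.2 to 115.1 FPKM in the knockouts and 122.8 to 132.3 in the controls.

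**Figure D2:**
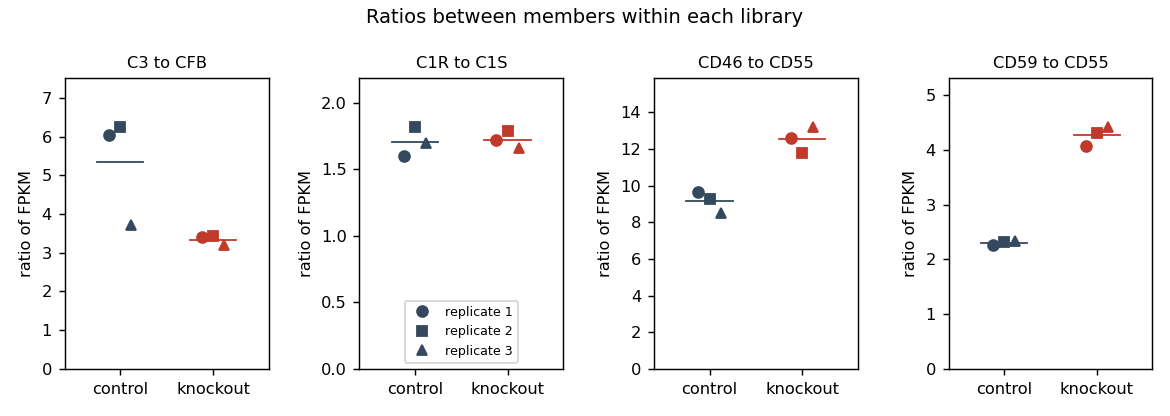
Ratio of FPKM between 2 members within each library, from 0 on a linear axis; points are libraries, marked by replicate number, and lines are group means. C1R to C1S overlapped between the groups, C3 to CFB was lower in the knockout with control 3 at 3.71, and CD46 and CD59 relative to CD55 were higher in every knockout library.

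Most other genes of the cascade were at low levels or listed at 0. Of 50 further complement genes looked up in the table, 43 were under 1 FPKM in every library, 17 of those listed at 0, and 6 were tested. By limma with Benjamini-Hochberg adjustment 3 rose, 1 fell and 2 did not pass, with a median log2 difference of 0.20, where 9.58% of all tested genes rose and 13.3% fell. The 3 include C5, which passed the filter only through its knockout values, and C1RL, which shares exonic bases with C1R. The list was chosen with earlier results of these data known, so nothing is read from its counts or median. C1QA, C1QB and C1QC, whose products form the recognition part of C1, were listed at 0, and C4A and C4B, near-identical copies that may share reads, were at most 0.105 FPKM. No gene of the 4 listed for convertase components passed the filter. C9, the pore-forming component, stayed between 0.346 and 0.923 FPKM.

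C5, the substrate of the late convertase, measured 2.25, 1.62 and 1.87 FPKM in the knockouts and 1.03, 0.993 and 0.937 FPKM in the controls. Its knockout libraries were all above its controls, with a ratio of 1.94 and a log2 difference of 0.55. C5 is counted among the genes that rose, but it passed the filter only through its knockout values, so only its values are given. CFI, encoding the protease that cuts C3b with CD46 as a cofactor, was below the filter at 0.568 ± 0.0962 FPKM against 0.947 ± 0.221 (SD, n = 3 each).

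C1RL, a C1r-like protease whose annotation overlaps that of C1R, rose from 8.91 ± 0.839 to 12.1 ± 0.384 FPKM (SD, n = 3 each). Its log2 difference was 0.41 (limma adjusted p = 0.00887). Reads of the 672 exonic bases it shares with C1R cannot be assigned between these genes, so its rise is not fully separate from that of C1R. MASP2, a lectin pathway protease, measured 1.28 to 1.54 FPKM in the knockouts and 0.934 to 1.58 in the controls and did not pass (limma adjusted p = 0.435). CLU, the fluid-phase inhibitor clusterin, had a log2 difference of -0.11 (limma adjusted p = 0.458). Among receptors, C3AR1 and C5AR1, which sense the C3a and C5a fragments, reached at most 0.110 and 0.355 FPKM, and C5AR2 was listed at 0. C1QBP, a mainly mitochondrial protein that binds C1q, fell from 268.7 ± 26.8 to 188.9 ± 3.34 FPKM (log2 difference -0.50, limma adjusted p = 0.00436). CALR, encoding calreticulin, an endoplasmic reticulum chaperone that also binds C1q, rose 1.21-fold (log2 difference 0.28, limma adjusted p = 0.0355). That call was lost as TPM and without any 1 of knockouts 1, 2 and 3 or of controls 1 and 2, at log2 differences of 0.23 to 0.33.

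**Figure D3:**
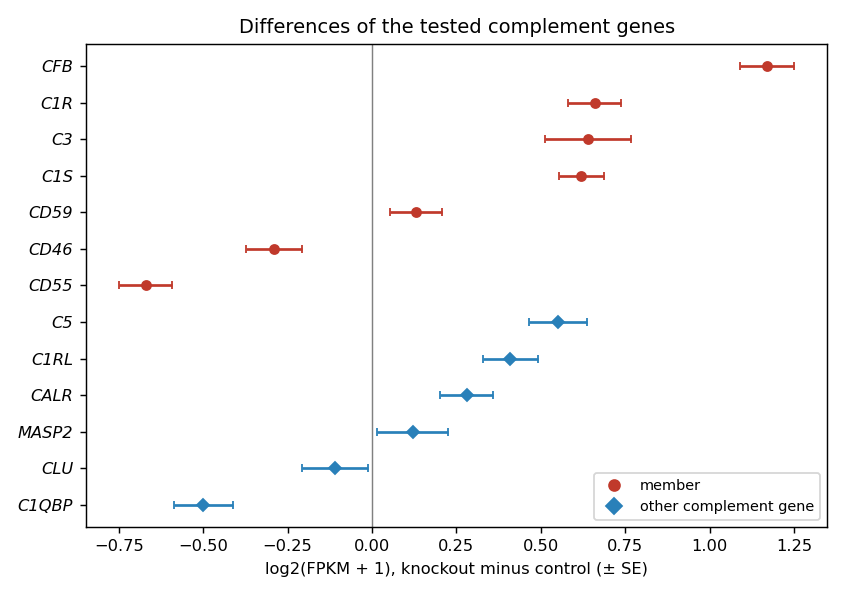
Difference between knockout and control on the log2(FPKM + 1) scale with its SE, for the 7 tested members (circles) and 6 other tested complement genes (diamonds). CFB had the highest value at 1.17 and CD55 the lowest at -0.67. C5, at 0.55, passed the filter only through its knockout values.

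Gene position was examined because genes of a stretch can differ together. Within 5 Mb of each start, the tested neighbours had median log2 differences of 0.13 around C3, 0.08 around CFB, -0.07 around C1R, -0.05 around CD46, -0.04 around CD55 and -0.04 around CD59. C3 and CFB stood above all of their 190 and 150 tested neighbours, and CD55 below all of its 55. Among all tested genes, C3, CFB and CD55 already stood above 98.9%, 99.9% and 1.18%. The members were chosen with this contrast known, so nothing is read from these ranks. CD46 stood above 10.7% of 56 neighbours and CD59 above 82.8% of 29. Around the C1 genes the higher values ran on into the next genes, which were picked out after their values were seen. From C1S through C1R and C1RL to CLSTN3, a synaptic adhesion gene that rose by limma (log2 difference 0.54, adjusted p = 0.0256), all 5 tested genes were above 0. Of these, C1R and C1RL share exonic bases and may share reads. CLSTN3 lost its call without knockout 1, 2 or 3, at 0.56, 0.48 and 0.57, and with no filter on low values, at 0.54. RBP5, a retinol carrier in that stretch, measured 6.46, 5.49 and 5.29 FPKM in the knockouts and 3.85, 5.62 and 0.620 in the controls and did not pass (log2 difference 0.85, limma adjusted p = 0.165). Its value depended on control 3, being 0.25 without that library. It passed with the replicate block (limma adjusted p = 0.0498), with array weights at 0.39 and without control 2 at 1.26. LPCAT3, which overlaps C1S on the opposite strand, and PEX5, the next tested gene after CLSTN3, had 0.09 and -0.05 (limma adjusted p = 0.437 and 0.602). Any part of gene position in these values was not tested.

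**Figure D4:**
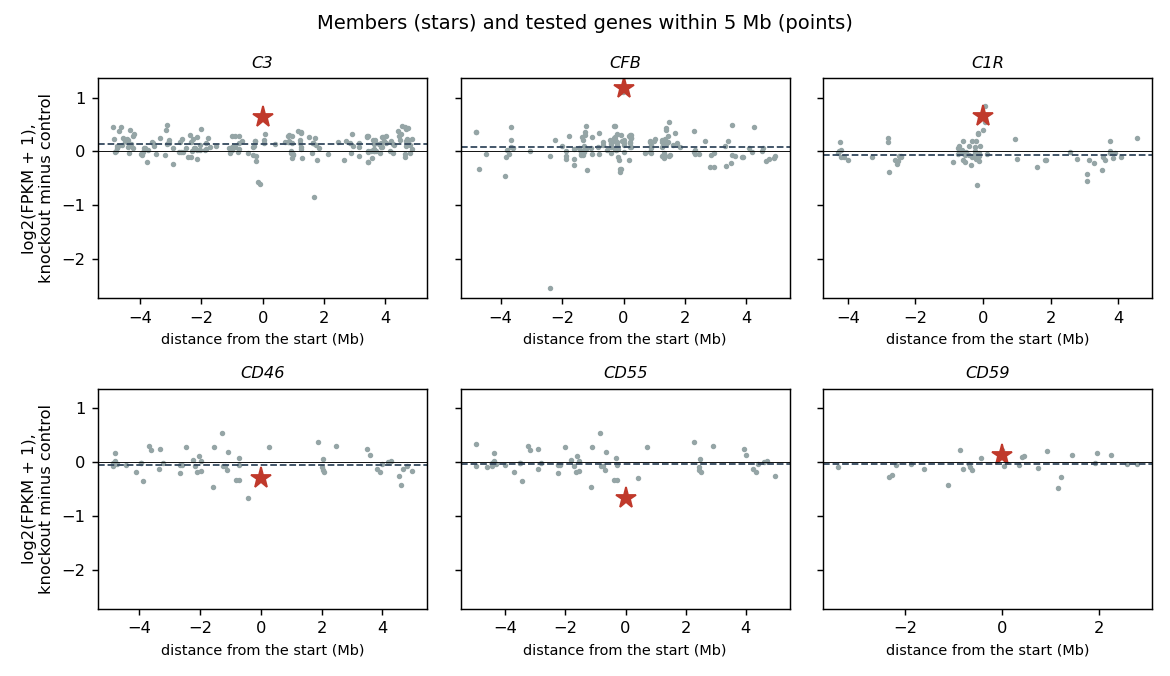
Log2 difference of tested genes (points) by distance in Mb from the start of 6 members (stars); the dashed line is the median of the neighbours. C3 and CFB lay above and CD55 below every tested neighbour, and C1R had other genes near 0 Mb at similar height.

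Complement genes of epithelium are known to respond to interferons, IL-1, TNF and the IL-6 family, through STAT, IRF, C/EBP and NF-kB factors. Of 26 such receptors, ligands and factors, 22 were tested. By limma with Benjamini-Hochberg adjustment 2 rose, 3 fell and 17 did not pass, with a median log2 difference of 0.09. In the main fit these 5 calls among 22 genes were near the 22.9% of all tested genes that passed. The list was chosen with earlier results of these data known, so nothing is read from the count. STAT2 and IRF9, partners in the factor that binds ISRE sites, rose 1.42-fold and 1.40-fold (limma adjusted p = 0.0102 and 0.0106). IFNGR1, the ligand-binding chain of the interferon-gamma receptor, fell from 59.5 ± 2.07 to 35.8 ± 1.69 FPKM (log2 difference -0.72, limma adjusted p = 0.000342). IL6R, the IL-6 receptor chain, measured 0.875 to 1.05 FPKM in the knockouts and 1.55 to 1.94 in the controls. It was 55.7% of control and is counted among the calls, but it passed the filter only through its control values, so only its values are given. STAT3, which acts downstream of that receptor, fell to 76.1% (limma adjusted p = 0.0313). RELA, an NF-kB subunit, had a log2 difference of 0.13 (limma adjusted p = 0.306). CEBPD measured 47.9, 47.1 and 54.2 FPKM in the knockouts and 26.0, 23.0 and 50.05 in the controls, control 3 lying among the knockouts (limma adjusted p = 0.0729). CEBPD passed at 0.99 without control 3, at 0.66 with the replicate block and at 0.62 as TPM. With array weights it passed at 0.99, and with the block and the correction for GC content and length at 0.50. The count of 5 calls was 8 with the block, 11 without control 3, 2 without knockout 2 and 3 without knockout 3. All tested genes past the threshold numbered 3051, 4521, 1030 and 1192 in those settings, against 2579. After the correction for GC content and length the count was 10, and 11 with the block added, beside 3179 and 2856 of 11177 genes. STAT2 lost its call without knockout 2 (0.46), IRF9 without knockout 2 or 3 (0.39 in both), and STAT3 without any 1 library other than control 3, at -0.38 to -0.29. STAT3 also lost it with no filter on low values, at -0.36.

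CD55 and CD59 reach the surface only after a GPI anchor is built and attached. Of 29 genes of that route 28 were tested. By limma with Benjamini-Hochberg adjustment 2 rose, 4 fell and 22 did not pass, with a median log2 difference of -0.06. In the main fit these 6 calls among 28 genes were again near the 22.9% over all tested genes. This list was likewise chosen with earlier results of these data known, so nothing is read from the count. PIGA, PIGL and PIGW fell to 74.0%, 76.2% and 77.3% of control (limma adjusted p = 0.0188, 0.0149 and 0.00905). DPM1, part of the enzyme that makes the mannose donor, fell to 71.3% (limma adjusted p = 0.0149). DPM2 and DPM3, at 105% and 117% of control, did not pass (limma adjusted p = 0.679 and 0.380). PIGQ and PIGO rose 1.35-fold and 1.29-fold (limma adjusted p = 0.0170 and 0.0342), and neither passed after the correction for GC content and length, at 0.09 and 0.20. The same correction moved the genes that fell to -0.18 for DPM1 from -0.48, to -0.23 for PIGW from -0.35, to -0.25 for PIGA from -0.38 and to -0.26 for PIGL from -0.33. All 4 still passed, but PIGA did not once the replicate block was added (limma adjusted p = 0.0519). The 6 calls were 1 without knockout 2 and 3 without knockout 3. PIGW alone of these genes passed without each library in turn. PIGA was lost without knockout 2 or 3 (-0.30 and -0.40), PIGL without knockout 1 or 2 (-0.31 and -0.32) and DPM1 without knockout 2 (-0.40). PIGO was lost without knockout 1, 2 or 3 (0.30 to 0.34), and PIGQ without knockout 2, knockout 3 or control 1 (0.29 to 0.39). PIGO was also lost with no filter on low values (0.32) and as TPM (0.31).

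**Figure D5:**
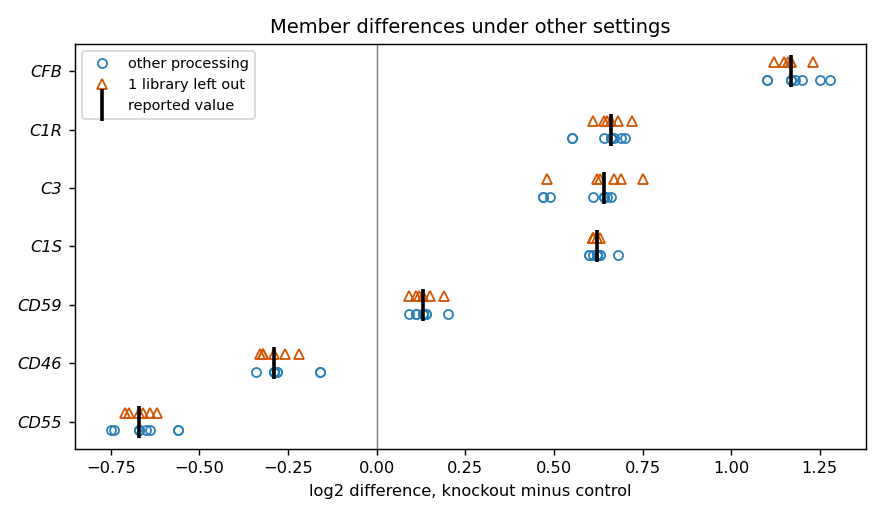
Log2 difference of each tested member as reported (black bar), under other processing (circles) and with 1 library left out (triangles). No member changed sign; C3 ranged from 0.47 to 0.75 and CD46 from -0.34 to -0.16.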

How the data were processed

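RNA was measured in 6 libraries, 3 labelled STUB1 knockout and 3 labelled control. The deposited table holds 1 FPKM value (fragments per kilobase of transcript, scaled to library size) per Ensembl gene and library, rounded by the authors to 3 decimals. Per the submitters' processing notes the tools were Trimmomatic 0.36, HISAT2 2.0.5, featureCounts 1.6.3, edgeR 3.6.3 and Cufflinks, with the build GRCh38.p13. Not given in the sources used here are their roles, the annotation release, the strand setting and whether values were scaled further.

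Members were matched through a table of Ensembl identifiers and symbols, with GENCODE 29 for places, exonic length and GC content. Genes with a mean of at least 1 FPKM (11262 of 20014) were tested on log2(FPKM + 1), a scale that understates changes of low genes. Knockout was compared with control by limma 3.58.1 (R 4.3.3), using a variance prior that follows mean expression and no covariate. P-values were Benjamini-Hochberg adjusted over all tested genes, with a threshold of 0.05. The fit was tested on simulated data first. FPKM is no count, so no count test was run. Steps among low values put the libraries at an estimated 45500000 to 52400000 reads each. Of those values 59.3% to 65.1% lay within 0.15 of a whole read, so reads were not recovered and no counting interval is given.

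The members and gene lists were chosen with earlier results of these data known, so the counts and adjusted p-values of listed genes describe this table only. Every member is named, and so is every tested gene of the wider complement lists. Of the other lists, up to 4 genes with the smallest p are named, with further ones chosen after their values were seen. Replicate numbers are shared between groups. After the group mean was subtracted, libraries with the same number had correlations over genes of 0.375, 0.150 and 0.188. Libraries with different numbers were not compared, so these values cannot show whether the numbers mark pairs. Same-numbered libraries were treated as pairs in the blocked fit, although the labels name no day or batch in common. A few genes are not reported here and were left out of the lists and their counts. The listed name MASP3 matched no symbol in the table. Alternatives covered the pseudocount (0.1), the filter, 2 scalings, the replicate block, array weights, a correction for GC content and length, and leaving out each library. Tables and plots used Python 3.11.15, pandas 2.3.3, numpy 2.4.6 and matplotlib 3.10.9.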

Additional observations from a re-analysis of the deposited data

How the results depend on the processing

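Over 15 alternatives no tested member changed sign. CFB, C1R, C1S and CD55 kept their side of the threshold in all of them. Members on the lower side numbered 1 in place of 2 with no filter on low values and after the correction for GC content and length with the replicate block, and 1 to 2 with 1 library left out. The replicate block alone left 4 members higher and 2 lower. All tested genes past the threshold numbered 1030 to 4521 with 1 library left out, the extremes without knockout 2 and without control 3, and 6437 with array weights, against 2579. GPI anchor genes numbered 1 to 9 with 1 library left out and 16 with array weights. Upstream signalling genes numbered 2 to 11 with 1 library left out, 12 with array weights, 8 under the replicate block, and 10 or 11 when GC content and length were corrected without or with the block. All tested genes past the threshold numbered 3051 with the block alone, 3179 with that correction and 2856 with both. MASP2 turned to -0.0018 with array weights. The cause of these shifts was not tested. With 3 libraries a group the smallest two-sided p an exact permutation test allows is 0.1.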

Other observations

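Proteases that can cleave complement proteins outside the cascade were listed as well, and 5 of them were tested. Like the other lists, this one was chosen with earlier results of these data known. FURIN, the convertase that cuts many precursor proteins in the secretory route, pro-C3 among them, rose from 16.5 ± 2.21 to 25.3 ± 1.41 FPKM (SD, n = 3 each; log2 difference 0.59, limma with Benjamini-Hochberg adjusted p = 0.00385). PLAU, the urokinase that activates plasminogen, measured 59.0, 59.3 and 60.7 FPKM in the knockouts and 91.7, 97.9 and 102.6 in the controls (log2 difference -0.70, limma adjusted p = 0.000427). CTSL, a lysosomal protease, stood at 84.5% of control and missed the threshold (limma adjusted p = 0.0796). It passed as TPM (-0.28), with array weights (-0.13) and after the correction for GC content and length, with and without the replicate block (-0.18). F12 and ST14 did not pass (limma adjusted p = 0.262 and 0.643). F12 passed without control 3, at 0.37, and with array weights, at 0.30, and ST14 after the correction for GC content and length, at -0.22.

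Over the 6 libraries, the genes most like C3 among 8067 with a mean of at least 5 FPKM were WWC3, EPAS1 and LIF, with Pearson's r of 0.9997, 0.9989 and 0.9985 on the log2(FPKM + 1) scale. A further count shows how common this was: 480 genes had r over 0.95 with C3, and 29 had it with CD59. Nearest to CD59 were ATP6V1H, SERPINB1 and CEBPD, at 0.992, 0.9856 and 0.9832. All these values share the same 6 libraries and their 2 groups.

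Below the filter, IL1R1, the signalling receptor for IL-1, measured 0.992 ± 0.108 FPKM in knockout cells and 0.521 ± 0.0337 FPKM in control cells, and SOCS1, an inhibitor of cytokine receptors, 0.967 ± 0.0866 and 0.529 ± 0.182 (SD, n = 3 each). TNF went the other way, at 0.088 to 0.158 FPKM in the knockouts and 0.313 to 0.331 in the controls. For JAK2 the groups overlapped, at 0.533 to 0.733 FPKM in the knockouts and 0.418 to 0.644 in the controls. CD14, a lipopolysaccharide coreceptor, stood at 0.103 to 0.166 FPKM in the knockouts and 0.419 to 0.559 in the controls.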
